A study of Homo sapiens with 6 samples.

Results

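The 10 genes described here encode chaperones and proteases of human mitochondria: the chaperonin pair HSPD1 and HSPE1, the Hsp70 chaperone HSPA9 with its co-chaperones DNAJA3 and GRPEL1, the Hsp90 paralog TRAP1, and the proteases LONP1, CLPP with its unfoldase CLPX, and YME1L1. They were taken by symbol for what their proteins do. All 10 were found among the 67140 Ensembl gene identifiers of the count table, and all 10 passed the filter on low counts that left 19254 genes for testing. RNA was sequenced from KYSE150, a cell line of human esophageal squamous cell carcinoma (ESCC), in 3 samples that carried a control hairpin (shCtrl) and 3 that carried a hairpin against the lncRNA AC007128.1 (shAC007128.1). The hairpins were brought in by lentivirus, and stable lines were selected with puromycin. Each arm thus rests on 1 hairpin sequence. The labels do not say whether the 3 samples of an arm were separate cultures, and p-values then measure only the spread between these samples, which may be technical.

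Proteins enter mitochondria unfolded through pores in both membranes. HSPA9 (mortalin) pulls them into the matrix and also assists their folding there, with DNAJA3 as a soluble J-domain partner and GRPEL1 as nucleotide exchange factor, and the barrel of HSPD1 closed by the lid HSPE1 then gives them a chamber to fold in. LONP1 and the CLPX-CLPP complex degrade misfolded matrix proteins, whereas YME1L1 is anchored in the inner membrane and cuts on the side facing the intermembrane space. Genes of this system are known to be raised when proteins misfold in the matrix, a program named the mitochondrial unfolded protein response, and HSPD1 and HSPE1 are also known as heat shock genes.

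Total estimated counts were 55764405 to 78610457 per sample, and a floor of 3 counts corresponds to 0.0373 to 0.0546 CPM, the unit of scaled counts used below. Low counts piled up at multiples of 4 (1355 genes at a count of 4 and 761 at 3 in shCtrl replicate 1), so the number of sequenced fragments behind a count may be lower than the count. The targeted lncRNA AC007128.1 had 69, 33 and 53 counts in shCtrl and 18, 37 and 15 in shAC007128.1 samples. Scaled, these were 0.943, 0.410 and 0.781 CPM and 0.320, 0.674 and 0.258 CPM. The log2 fold change of AC007128.1 was -0.77 ± 0.51 (SE, edgeR adjusted p = 0.271), so a lower level was not detected at this depth. Of its exonic bases 42.2% are shared with other genes, so its count is uncertain to that extent. The study reports by qPCR that the hairpin lowered AC007128.1 RNA. Of 8 squamous epithelial markers 6 were higher in shAC007128.1 cells by edgeR, beside 21.0% of all genes tested. Among the 6 were KRT6A (log2 fold change 2.46), KRT14 (2.28) and EPCAM (0.92). KRT17 (0.45) and TP63 (-0.27), named after their values were seen, did not pass (edgeR adjusted p of 0.102 and 0.406). The summed level of the 8 markers was 1930 to 1970 CPM in shCtrl and 2870 to 3630 CPM in shAC007128.1 samples. The 12 markers of leukocytes, endothelium and fibroblasts summed to 78.4 to 85.4 CPM in shCtrl and 40.5 to 45.2 CPM in shAC007128.1 samples. CD68, also made by other cells with lysosomes, was at 58.8 to 67.3 CPM in shCtrl and at 13.5 to 23.5 CPM in shAC007128.1 samples (log2 fold change -1.87). Of its exonic bases 85.6% are shared with other genes, so the count of CD68, and with it most of the sum in shCtrl, is uncertain. The B cell gene MS4A1 was at 0 in all 6 samples and the leukocyte gene PTPRC reached at most 0.164 CPM. Fold changes of the other 3 markers that passed the test were 2.14 for LUM, 0.33 for COL1A1 and -1.60 for PDGFRB on the log2 scale. Levels were low for LUM, at 0.604 to 1.39 CPM in shCtrl and 3.91 to 5.30 CPM in shAC007128.1 samples. Those of PDGFRB were 0.354 to 0.634 CPM and 0.0889 to 0.237 CPM, near the floor. The call of COL1A1 (edgeR adjusted p = 0.0462) was lost in 11 of 14 alternatives and that of PDGFRB (edgeR adjusted p = 0.0474) in 9 of the 12 that tested it. The part of these differences in the results below was not tested. In bulk RNA of a cell line, fewer cells with a transcript and less of it per cell cannot be told apart.

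The main transcripts of HSPD1 and HSPE1 lie next to each other on chromosome 2 of hg38, on opposite strands and head to head. With all annotated transcripts, HSPD1 extends from 197486584 to 197516737 on the minus strand and HSPE1 from 197500140 to 197503449 on the plus strand. The whole span of HSPD1 thus contains that of HSPE1. In GENCODE v44 the start sites of their main transcripts are 538 bases apart. The start regions are shown because both genes moved in the same direction, and that of HSPA9 because it moved in the other. Each runs 5′ to 3′ in the direction of the gene, from 250 bases before to 50 bases after a RefSeq start on GRCh38.p14, and capitals mark matches to the heat shock motifs TTCNNGAA and GAANNTTC, which read the same on both strands.
HSPD1 (chr2:197499791-197500090, minus strand): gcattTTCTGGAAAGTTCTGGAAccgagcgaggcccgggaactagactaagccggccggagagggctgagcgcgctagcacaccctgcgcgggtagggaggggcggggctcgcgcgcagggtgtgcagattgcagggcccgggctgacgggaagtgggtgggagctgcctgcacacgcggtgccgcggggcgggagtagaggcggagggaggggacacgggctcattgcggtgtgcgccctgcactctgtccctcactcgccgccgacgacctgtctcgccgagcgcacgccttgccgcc
HSPE1 (chr2:197500129-197500428, plus strand): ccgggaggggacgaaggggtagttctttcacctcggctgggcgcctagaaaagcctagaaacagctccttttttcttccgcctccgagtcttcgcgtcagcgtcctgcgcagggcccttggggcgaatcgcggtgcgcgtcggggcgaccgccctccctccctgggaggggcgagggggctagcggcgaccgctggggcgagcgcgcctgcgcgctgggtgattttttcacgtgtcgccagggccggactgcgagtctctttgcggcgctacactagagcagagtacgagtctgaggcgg
HSPA9 (chr5:138575352-138575651, minus strand): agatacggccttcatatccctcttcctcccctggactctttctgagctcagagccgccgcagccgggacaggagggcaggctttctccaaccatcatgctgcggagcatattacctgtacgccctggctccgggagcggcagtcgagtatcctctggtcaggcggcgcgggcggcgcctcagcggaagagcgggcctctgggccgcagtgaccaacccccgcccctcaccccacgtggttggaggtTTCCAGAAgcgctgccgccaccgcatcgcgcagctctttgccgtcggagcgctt

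RefSeq start regions were matched for 7 of the 10 genes, in 9 windows. In the HSPD1 window shown above, TTCNNGAA occurred at 2 places, positions -245 and -235 from the start. GAANNTTC lay between them with overlap, so that 18 bases at 197500068 to 197500085 held an alternating array. The other HSPD1 window, at 197500225 to 197500524, held no match to either motif. The array lies in the stretch between the paired start sites, 294 bases before the HSPE1 start and therefore outside the HSPE1 window, which held no match. The HSPA9 window held 1 TTCNNGAA that overlapped its start site. No match to either motif was found in the windows of TRAP1, DNAJA3, LONP1 or CLPX. Of 34794 different start windows in the RefSeq table, 4706 (13.5%) held at least 1 of the motifs, but only 9 (0.0259%) held the same array as HSPD1. Of the genes with such a window, 3 could be matched by symbol to the 19254 tested. They were HSPD1, the Hsp90 co-chaperone gene CHORDC1 (log2 fold change 1.39, edgeR adjusted p = 8.61e-05) and COMMD1 (0.55, edgeR adjusted p = 0.00838), the last 2 named after their values were seen. The array was defined from the HSPD1 window shown above, and 21.0% of all genes tested were higher. A link of the array to these changes was not tested. The motif TGATGNAA, bound by C/EBP-ATF dimers such as those of ATF4, was in 3.63% of windows on either strand and in 0 of the 9 windows of these genes. CCAAT (34.6% of windows, either strand) was found in those of DNAJA3 and CLPX. These matches describe letters in a window and not the binding of a factor.

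The comparison of shAC007128.1 with shCtrl cells asked how the transcriptome of ESCC cells differs when the hairpin targets AC007128.1. Among the 10 genes it showed 2 opposite movements within the same compartment. The chaperonin genes HSPD1 and HSPE1 rose by 2.31 and 2.61 times, HSPA9 and LONP1 fell to 0.567 and 0.582 of their control level, and the other 6 did not pass the test. By edgeR's quasi-likelihood test with Benjamini-Hochberg adjustment over all genes, an adjusted p of at most 0.05 was reached by 2 of the 10 in the higher direction and by 2 in the lower, whereas 21.0% of all genes tested were higher and 19.8% lower. With the study's added limit of a 2-fold change, HSPD1 and HSPE1 were called higher and 0 of the 10 lower, beside 5.57% and 10.1% of all genes. The shares of the 10 that passed are near those of all genes, and the higher share past the 2-fold limit rests on 2 genes. The median log2 fold change was -0.04, against -0.02 for all genes. The levels of shCtrl and shAC007128.1 samples did not overlap for 6 of the 10 genes, where 55.2% of all genes tested were separated. The summed level of the 10 genes was 1980 to 2010 CPM in shCtrl and 2040 to 2120 CPM in shAC007128.1 samples.

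**Figure D1:**
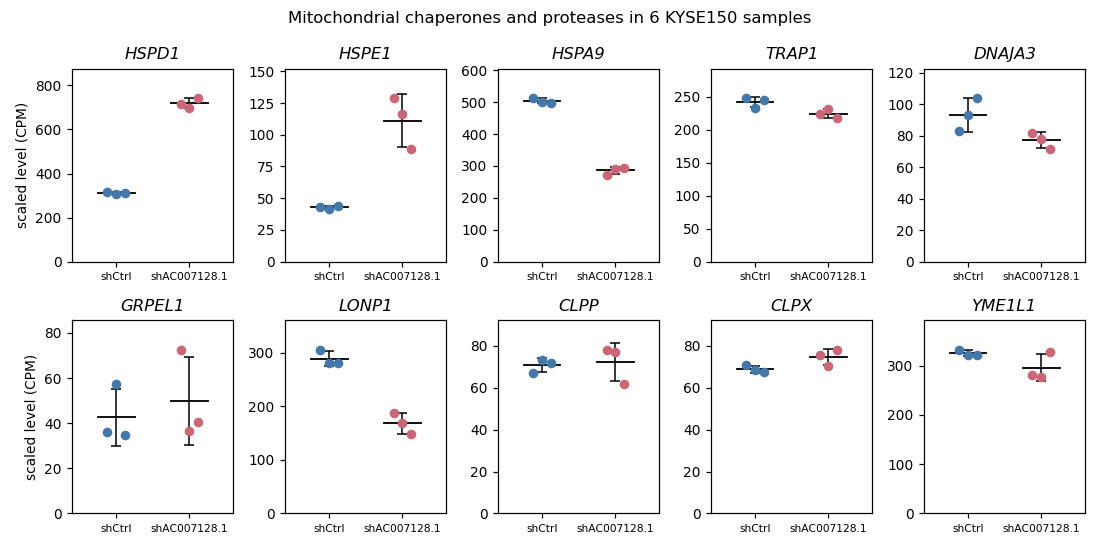
Scaled level (CPM, axes from 0) of each of the 10 genes in the 3 shCtrl (blue) and 3 shAC007128.1 (red) samples, with the mean (line) and SD (bar). HSPD1 and HSPE1 sit higher in every shAC007128.1 sample, HSPA9 and LONP1 lower, and the ranges of GRPEL1, CLPP, CLPX and YME1L1 overlap between the groups.

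HSPD1 encodes the mitochondrial chaperonin known as HSP60. Its level was 314, 307 and 313 CPM in shCtrl replicates 1, 2 and 3 and 716, 699 and 743 CPM in shAC007128.1 replicates 1, 2 and 3. The groups were far apart, with a range within each that was small beside the gap. The log2 fold change was 1.21 ± 0.06 (SE, edgeR adjusted p = 2.24e-05). The table also lists 18 pseudogenes named after HSPD1, to which reads of the gene can be assigned, and their counts together came to 0.644% of those of HSPD1.

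HSPE1 encodes the lid of the chaperonin, known as HSP10. Its level was 43.4, 41.1 and 43.5 CPM in shCtrl and 129, 116 and 88.7 CPM in shAC007128.1 replicates 1, 2 and 3. All shAC007128.1 samples lay above all shCtrl samples, and replicate 3 was the lowest of them. The log2 fold change was 1.38 ± 0.14 (SE, edgeR adjusted p = 0.000324), and 1.51 without shAC007128.1 replicate 3. Its main transcript has 557 bases. In the 628 genes of at least 10 CPM with a main transcript under 1 kb, shAC007128.1 replicate 3 had a median log2 deviation of -0.13 from its group mean and replicate 1 of 0.12, while in 5739 genes of 3 kb and over these values were 0.05 and -0.03. The part of this difference between libraries in the spread of HSPE1 was not tested. Of the exonic bases of HSPE1, 17.9% are shared with other genes, 192 with the readthrough gene HSPE1-MOB4 and 135 with HSPD1 on the opposite strand. The use of strand in the counting is not stated, so reads from these bases cannot be assigned with certainty.

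HSPD1 and HSPE1 were compared within each sample to see whether the barrel and the lid moved by the same amount. The log2 ratio of HSPD1 to HSPE1 was 2.86, 2.90 and 2.85 in shCtrl and 2.47, 2.59 and 3.07 in shAC007128.1 replicates 1, 2 and 3. The groups overlapped, and the ratio differed by -0.16 (two-sided exact permutation p = 0.4, adjusted p = 0.44 over 11 pairs). With 3 samples against 3 the smallest possible p was 0.1, so this test could not have shown unequal change. With 1 sample left out at a time the difference ranged from -0.34 (without shAC007128.1 replicate 3) to -0.04 (without shAC007128.1 replicate 1). Per kb of spliced transcript the level of HSPE1 was 55.7%, 54.0% and 56.0% of that of HSPD1 in shCtrl and 72.9%, 66.8% and 48.1% in shAC007128.1 samples. The shAC007128.1 samples thus lay on both sides of the control values.

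HSPA9 is the matrix Hsp70 that also drives import. Its level was 513, 502 and 497 CPM in shCtrl replicates 1, 2 and 3 and 273, 289 and 295 CPM in shAC007128.1 replicates 1, 2 and 3. Each shAC007128.1 sample was well below each shCtrl sample. The log2 fold change was -0.82 ± 0.06 (SE, edgeR adjusted p = 8.3e-05), short of the 2-fold limit. The gene lies on chromosome 5 from 138553756 to 138575675, and 1.41% of its exonic bases are shared with the small nucleolar RNA genes SNORD63 and SNORD63B.

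The co-chaperones of HSPA9 did not pass the test. DNAJA3, the J-domain protein that hands substrates to HSPA9, was at 82.8, 92.9 and 104 CPM in shCtrl and at 81.8, 78.1 and 71.5 CPM in shAC007128.1 samples. The groups touched without overlap, with a log2 fold change of -0.27 ± 0.11 (SE, edgeR adjusted p = 0.0742). DNAJA3 passed the test without shCtrl replicate 1 (-0.36, edgeR adjusted p = 0.0492) and, over all alternatives, its adjusted p ranged from 0.0424 to 0.229. GRPEL1, which releases ADP from HSPA9, was at 36.0, 57.2 and 34.7 CPM in shCtrl and at 72.5, 36.7 and 40.6 CPM in shAC007128.1 samples. One sample of each group stood above the others and the groups overlapped, with a log2 fold change of 0.23 ± 0.30 (SE, edgeR adjusted p = 0.581) that was -0.14 without shAC007128.1 replicate 1 (edgeR adjusted p = 0.679). DNAJA3 lies on chromosome 16 from 4425805 to 4456775 (plus strand) and GRPEL1 on chromosome 4 from 7058671 to 7068085 (minus strand).

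Within samples, the log2 ratio of HSPA9 to DNAJA3 was 2.44 ± 0.19 (SD, n = 3) in shCtrl and 1.89 ± 0.15 in shAC007128.1 cells, without overlap. The ratio of HSPA9 to GRPEL1 was 3.60 ± 0.40 (SD, n = 3) and 2.58 ± 0.58. Both pairs had a two-sided exact permutation p of 0.1, the smallest that 3 samples against 3 allow, and an adjusted p of 0.122 over the 11 pairs.

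TRAP1, on chromosome 16 from 3651639 to 3717553 (minus strand), encodes the Hsp90 of the matrix. Its level was 248, 233 and 245 CPM in shCtrl and 224, 231 and 218 CPM in shAC007128.1 samples. The groups did not overlap, but the gap of the nearest samples was smaller than the range within either group. The log2 fold change was -0.11 ± 0.06 (SE, edgeR adjusted p = 0.204). Of its exonic bases 28.5% are shared, mostly with DNASE1 on the opposite strand, so its count is uncertain to that extent.

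Of the proteases, LONP1 fell. This soluble matrix protease, which also binds mitochondrial DNA, was at 305, 281 and 280 CPM in shCtrl and at 188, 168 and 148 CPM in shAC007128.1 samples. All shAC007128.1 samples were lower than all shCtrl samples. The log2 fold change was -0.78 ± 0.10 (SE, edgeR adjusted p = 0.000823). LONP1 lies on chromosome 19 from 5691834 to 5720572, and 0.835% of its exonic bases are shared with RPL36 on the opposite strand.

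CLPP, the peptidase, and CLPX, the ATPase that feeds it, did not pass the test. CLPP lies on chromosome 19 from 6361531 to 6370242 (plus strand) and CLPX on chromosome 15 from 65148219 to 65185342 (minus strand). CLPP was at 66.8, 73.2 and 71.9 CPM in shCtrl and at 78.0, 77.0 and 61.7 CPM in shAC007128.1 samples, which spread to both sides of the controls. Its log2 fold change of 0.03 ± 0.11 (SE, edgeR adjusted p = 0.835) changed sign with library size scaling (-0.04). CLPX was at 70.7, 68.2 and 67.3 CPM in shCtrl and at 75.4, 70.4 and 78.0 CPM in shAC007128.1 samples, with a log2 fold change of 0.12 ± 0.08 (SE, edgeR adjusted p = 0.26). The log2 ratio of CLPP to CLPX was 0.04 ± 0.10 (SD, n = 3) in shCtrl and -0.05 ± 0.25 in shAC007128.1 cells (two-sided exact permutation p = 0.7, adjusted p = 0.7 over the 11 pairs). By contrast, the log2 ratio of LONP1 to CLPP was 2.03 ± 0.14 and 1.22 ± 0.08 (SD, n = 3), without overlap (exact permutation p = 0.1, adjusted p = 0.122).

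YME1L1, the inner membrane protease, was at 332, 322 and 322 CPM in shCtrl and at 282, 278 and 327 CPM in shAC007128.1 samples. Replicate 3 of shAC007128.1 lay within the control range and the other 2 below it. The log2 fold change was -0.14 ± 0.08 (SE, edgeR adjusted p = 0.207). Without shAC007128.1 replicate 3 it was -0.22 (edgeR adjusted p = 0.00416), so 1 library decided this call. YME1L1 lies on chromosome 10 from 27110111 to 27155266, minus strand, and 6.04% of its exonic bases are shared with MASTL on the opposite strand.

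**Figure D2:**
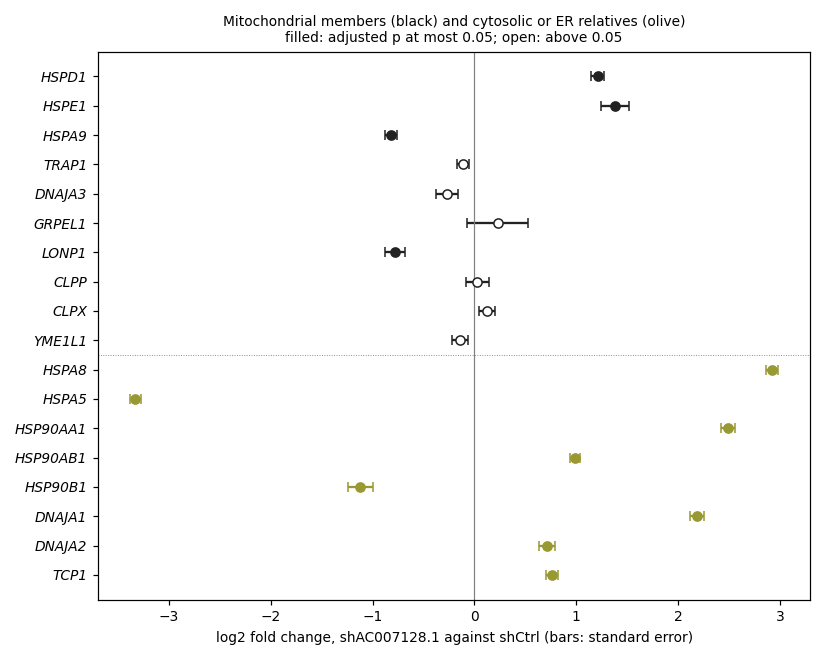
Log2 fold change of shAC007128.1 against shCtrl (horizontal axis, bars are standard errors) of the 10 mitochondrial genes (black) and 8 relatives in the cytosol or endoplasmic reticulum (olive), with filled points for an adjusted p of at most 0.05. The mitochondrial genes lie between -0.82 and 1.38, and the relatives between -3.33 and 2.92.

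Levels of different genes were compared as CPM per kb of the main spliced transcript. In shCtrl cells the order was HSPD1 (139 ± 1.70 CPM per kb, SD, n = 3), HSPA9 (114 ± 1.89), TRAP1 (109 ± 3.44), LONP1 (93.4 ± 4.63), YME1L1 (77.6 ± 1.36) and HSPE1 (76.6 ± 2.39). DNAJA3 (34.5 ± 3.94), CLPP (29.3 ± 1.40), GRPEL1 (16.1 ± 4.76) and CLPX (14.6 ± 0.375) followed. Samples of the neighbours YME1L1 and HSPE1 overlapped, as did those of GRPEL1 and CLPX, so their order is not set. In shAC007128.1 cells HSPD1 (320 ± 10.0 CPM per kb, SD, n = 3) and HSPE1 (200 ± 37.1) stood first, with TRAP1 (101 ± 3.04), YME1L1 (70.6 ± 6.49), HSPA9 (64.9 ± 2.50) and LONP1 (54.3 ± 6.49) after them and samples of YME1L1 and HSPA9 overlapping. HSPA9 and TRAP1, which were side by side in shCtrl cells, were thus apart in shAC007128.1 cells. Among all genes tested, HSPD1 exceeded 99.0% and HSPA9 98.4% in mean CPM, and GRPEL1, the lowest of the 10 by this measure, exceeded 72.8%.

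**Figure D3:**
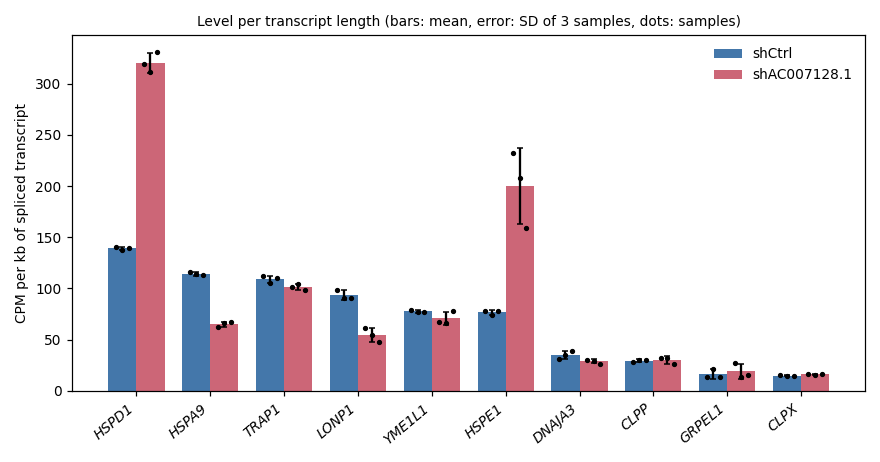
Level per kb of spliced transcript (vertical axis, CPM per kb from 0) of the 10 genes, ordered by their shCtrl mean, in shCtrl (blue) and shAC007128.1 (red) cells. Bars are means, error bars SDs of 3 samples and dots the samples; HSPD1 goes from 139 to 320 and HSPE1 from 76.6 to 200, while HSPA9 goes from 114 to 64.9.

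The mitochondrial members were set beside their relatives in other compartments. HSPA8, the constitutive Hsp70 of the cytosol, went from 181 to 192 CPM in shCtrl to 1390 to 1420 CPM in shAC007128.1 samples (log2 fold change 2.92 ± 0.06 SE, edgeR adjusted p = 1.05e-06). HSPA5 (BiP), the Hsp70 of the endoplasmic reticulum, went from 8760 to 9020 CPM down to 855 to 935 CPM (log2 fold change -3.33 ± 0.05 SE, edgeR adjusted p = 4.9e-07). HSPA9 therefore moved between the other two, with a log2 ratio to HSPA8 of 1.44 ± 0.05 (SD, n = 3) in shCtrl and -2.30 ± 0.05 in shAC007128.1 cells and a ratio to HSPA5 of -4.15 ± 0.02 and -1.64 ± 0.07. In the Hsp90 family, HSP90AA1 and HSP90AB1 of the cytosol rose (log2 fold changes 2.49 and 0.99) and HSP90B1 of the endoplasmic reticulum fell (-1.12). The log2 ratio of TRAP1 to HSP90AB1 went from -2.25 ± 0.05 to -3.34 ± 0.10 (SD, n = 3) and that to HSP90AA1 from -0.97 ± 0.05 to -3.56 ± 0.16. DNAJA1 and DNAJA2, cytosolic J-domain proteins, rose by 2.19 and 0.71 on the log2 scale, and the log2 ratio of DNAJA3 to DNAJA1 went from 1.22 ± 0.14 to -1.24 ± 0.13 (SD, n = 3). TCP1, a subunit of the cytosolic chaperonin ring, rose by 0.76, less than HSPD1. Of exonic bases, 15.1% in HSPA8 and 12.4% in TCP1 are shared with other genes. The log2 ratio of HSPD1 to TCP1 was 0.58 ± 0.04 in shCtrl and 1.03 ± 0.07 in shAC007128.1 cells (SD, n = 3). In each of these 6 pairs the groups did not overlap, and each had a two-sided exact permutation p of 0.1, the smallest possible here, and an adjusted p of 0.122 over the 11 pairs.

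**Figure D4:**
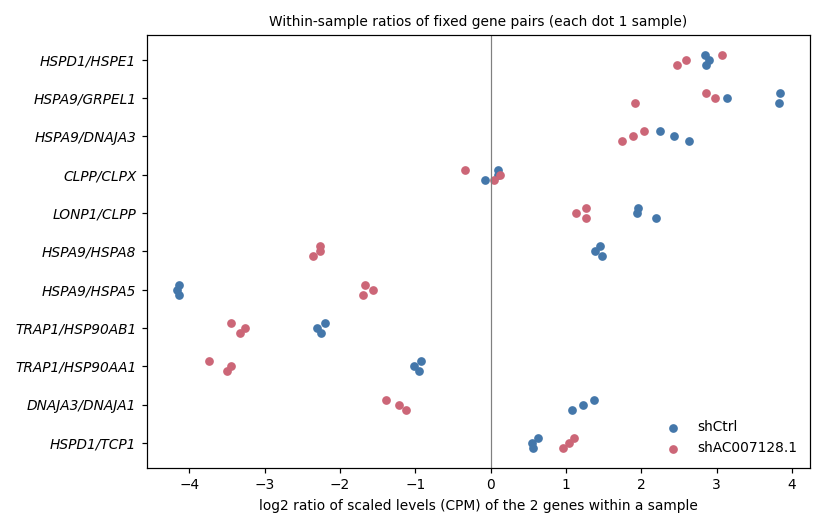
Log2 ratio of the scaled levels of 2 genes within a sample (horizontal axis) for the 11 fixed pairs, each dot a sample of shCtrl (blue) or shAC007128.1 (red). The colors mix only for HSPD1/HSPE1 and CLPP/CLPX; HSPA9/HSPA8 goes from a mean of 1.44 to -2.30, and HSPA9/HSPA5 from -4.15 to -1.64.

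Beyond the 10 genes, the other chaperones and co-chaperones of mitochondria had a median log2 fold change of 0.08, against the -0.02 of all genes. Of the 9 tested out of 10, 1 was higher and 1 lower, beside 21.0% and 19.8% of all genes tested. TIMM44, which anchors HSPA9 at the import channel, fell from 78.1, 78.5 and 87.0 CPM to 60.0, 57.1 and 44.5 CPM (log2 fold change -0.59 ± 0.12 SE, edgeR adjusted p = 0.00801), the same direction as HSPA9. PPIF (cyclophilin D) rose by 0.22 on the log2 scale (edgeR adjusted p = 0.0209), a call that was lost in 8 of 14 alternatives, with adjusted p between 0.00868 and 0.133. GRPEL2, the paralog of GRPEL1, was at 20.4, 67.1 and 20.5 CPM in shAC007128.1 samples and at 24.9 to 29.6 CPM in shCtrl samples (log2 fold change 0.39, edgeR adjusted p = 0.528), with replicate 2 of shAC007128.1 alone above the controls. It was named after its values were seen.

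Among 17 other mitochondrial proteases and their scaffold proteins, all tested, 6 were higher and 1 lower, beside 21.0% and 19.8% of all genes tested. The median log2 fold change was 0.09. PITRM1, which degrades cleaved presequences, rose by 0.66 on the log2 scale (standard error 0.07, edgeR adjusted p = 0.000473). XPNPEP3, an aminopeptidase, rose by 1.06 (edgeR adjusted p = 0.00139), and PMPCA, a subunit of the processing peptidase, by 0.52 (edgeR adjusted p = 0.00331). OMA1, the stress-activated inner membrane protease, fell by 0.59 on the log2 scale (edgeR adjusted p = 0.0207), and its adjusted p was 0.0521 to 0.0673 when any one sample other than shAC007128.1 replicate 3 was left out. Some exonic bases of PITRM1 are shared with its antisense gene PITRM1-AS1. Thus LONP1 and OMA1 were lower while the 6 others that passed were higher.

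Of the 21 genes of protein import into mitochondria, 2 were higher and 3 lower, beside 21.0% and 19.8% of all genes tested. Their median log2 fold change was 0.09. TIMM21 rose by 1.01 (edgeR adjusted p = 0.00148) and TIMM50 by 0.26 (edgeR adjusted p = 0.0217), both parts of the inner membrane translocase, whereas TOMM22 (-0.33), TIMM9 (-0.53) and TIMM17A (-0.25) were lower (edgeR adjusted p of 0.0204, 0.0381 and 0.043). These calls other than that of TIMM21 depended on the setting. They were lost in 8 of 14 alternatives for TIMM50, 4 for TOMM22, 7 for TIMM9 and 7 for TIMM17A. Of the exonic bases of TIMM9, 26.6% are shared with genes on the opposite strand, so its count is uncertain to that extent. The counts went from 1 to 8 higher and from 0 to 5 lower over the alternatives, with 8 and 5 without shAC007128.1 replicate 3. In the lower direction 0 passed edgeR's test when replicate 1 or 2 of shCtrl or replicate 2 of shAC007128.1 was left out, and 1 or 2 then passed in the higher.

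Of 7 regulators linked to mitochondrial stress, 2 were higher and 3 lower, beside 21.0% and 19.8% of all genes tested. The median log2 fold change of the 7 was -0.23. ATF5, a transcription factor of the mitochondrial unfolded protein response, went from 1.98, 2.35 and 2.02 CPM in shCtrl to 6.51, 5.77 and 5.38 CPM in shAC007128.1 samples (log2 fold change 1.47 ± 0.17 SE, edgeR adjusted p = 0.000574). Of its exonic bases 22.1% are shared with other genes, mostly NUP62 on the opposite strand. HSF1, the heat shock transcription factor, rose by 0.56 (edgeR adjusted p = 0.00336). ATF4, DDIT3 (CHOP) and CEBPB, known from the integrated stress response, fell with log2 fold changes of -0.67, -2.82 and -2.13 (edgeR adjusted p of 0.000749, 0.000143 and 2.96e-05). Neighbouring genes overlap 39.6% of the exonic bases of DDIT3 and 12.6% of those of CEBPB, but 0% of those of ATF4. The levels of DDIT3 and CEBPB may therefore include reads of their neighbours. ATF5 and ATF4 thus moved in opposite directions, as HSPD1 and HSPA9 did, and no link between them was tested.

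Genes of mitochondrial content and biogenesis were listed because the amount of mitochondria could also differ. Their median log2 fold change was 0.13. Of 15 tested out of 16, 6 were higher and 1 lower, beside 21.0% and 19.8% of all genes tested. Without shCtrl replicate 2 only 2 were higher. VDAC3, an outer membrane channel, rose by 1.14 on the log2 scale (edgeR adjusted p = 6.45e-05). PPARGC1B, a coactivator, rose by 0.53 (edgeR adjusted p = 0.00272). POLG, the mitochondrial DNA polymerase, rose by 0.47 (edgeR adjusted p = 0.0152, lost in 2 of 14 alternatives), while its accessory subunit POLG2 fell by 0.58 (edgeR adjusted p = 0.00274). Of the exonic bases of POLG, 15% are shared with other genes. Of the 13 protein-coding genes of mitochondrial DNA, 6 were higher by edgeR, beside 21.0% of all genes tested, and 7 did not pass the test. The median log2 fold change of the 13 was 0.17, and 3 to 7 were higher over all alternatives. The 6 included MT-ATP6 (log2 fold change 2.31, edgeR adjusted p = 1.73e-05), MT-ND1 (0.35) and MT-ND6 (0.39). Of the exonic bases of MT-ATP6 6.9% are shared, nearly all with MT-ATP8. The log2 fold change of MT-ATP8, added after its value was seen, was 0.56 (edgeR adjusted p = 0.055), and its groups overlapped. The part of read assignment between these overlapping genes in the change of MT-ATP6 was not tested. Without shAC007128.1 replicate 3, 4 of the 13 were lower. The 13 together held 6.99% to 7.37% of all counts in shCtrl and 6.99% to 8.90% in shAC007128.1 samples, so their share overlapped between the groups.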

How the data were processed

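RNA of 6 KYSE150 samples, 3 per group by the titles in their labels, was sequenced as paired-end poly-A libraries. Reads of rRNA, with adapters or of low quality were discarded by the authors before alignment to hg38 by TopHat (the submitters' processing notes list TopHat2 2.0.6, CASAVA 1.8 and the builds GRCh38 and mm10). The deposited values are estimated counts per gene, whole numbers that the authors had not normalized. The counting program, its annotation and its use of strand are not given in the sources used here. The treatment text names shAC007128.1 for every sample and was not used, and 0 sample columns were unmapped.

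Symbols, positions and lengths came from GENCODE v44 on hg38 (60357 of 67140 identifiers found). Start regions came from RefSeq (GRCh38.p14). Genes were filtered with filterByExpr before TMM scaling, and the quasi-likelihood test of edgeR 4.0.16 (glmQLFit and glmQLFTest, R 4.3.3) was used, with Benjamini-Hochberg adjustment over 19254 genes. Standard errors are the log2 fold change over the root of F, and CPM uses the TMM-scaled library sizes. Pairs were compared by log2 CPM ratios with exact two-sided permutation over samples. The 10 genes, the other lists, the 11 pairs and the rule for named genes were chosen with earlier results of these data known. By that rule the text names the 10 genes, their 8 relatives, AC007128.1 and, in each other list, up to 3 genes with the smallest p per direction among those passing. The array of motifs and the comparison by transcript length were added after seeing the data. In simulated counts for this comparison, with 200 of 19254 genes changed, edgeR recovered 96.0%, DESeq2 1.42.0 95.0% and limma-voom (limma 3.58.1) 96.0%. The floor of 3 counts covers counting error only.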

Additional observations from a re-analysis of the deposited data

How the results depend on the processing

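HSPD1, HSPE1, HSPA9 and LONP1 kept their direction and an adjusted p of at most 0.05 in all 14 alternatives: no filter, a minimum of 10 counts in each sample, scaling by library size only or by the size factors of DESeq2, the replicate block, division of counts by 4, limma-voom, DESeq2, and each of the 6 samples left out. Their log2 fold changes ranged from 1.13 to 1.23, 1.26 to 1.51, -0.89 to -0.79 and -0.87 to -0.70. With a fold limit of 1.5 instead of 2, 2 of the 10 genes were called lower instead of 0. The median log2 fold change of the 10 genes, -0.04, was -0.11 with library size only, -0.08 without a filter, -0.07 with the minimum of 10 counts, and -0.11 (without shAC007128.1 replicate 1) to -0.01 with each sample left out. CLPP, at 0.03, was -0.04 with library size only, -0.01 without a filter, -0.00 with the minimum of 10 counts, and -0.03 to 0.13 with each sample left out. GRPEL1, at 0.23, ranged from -0.14 (without shAC007128.1 replicate 1) to 0.49 (without shCtrl replicate 2). DNAJA3 passed the test in 3 alternatives and YME1L1 in 1. The CLPP/CLPX difference of -0.09 ranged from -0.18 to 0.05 with each sample left out. The cause of these changes was not tested. Deviations from the group means correlated between samples of the same number at 0.031, -0.025 and -0.030, so the numbers were not taken as pairs. With the replicate block 2 of the 10 genes were still higher and 2 lower, the calls of PPIF, TIMM50, TIMM9, TIMM17A, COL1A1 and PDGFRB were lost, 977 and 1692 of all genes were called higher and lower at the 2-fold limit (1073 and 1945 without it), and HSPD1 had a log2 fold change of 1.21 (edgeR adjusted p = 0.000846). Library size only moved the median of all genes from -0.024 to -0.098. No filter and DESeq2, which both tested 34756 genes, gave -0.149 and -0.134. The alternatives for the other lists were chosen after seeing the data. Over them, the number of import genes ranged from 1 to 8 higher and 0 to 5 lower. That of content genes ranged from 2 to 6 higher, and that of mitochondrial genome genes from 3 to 7 higher and 0 to 4 lower. That of other proteases ranged from 5 to 6 higher and 0 to 1 lower. Other chaperones ranged from 0 to 1 higher and 1 to 2 lower, stress regulators from 3 to 5 lower, squamous markers from 4 to 7 higher, and the other cell type markers from 1 to 2 higher and 1 to 4 lower.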
